A study of Mus musculus with 6 samples.

Results

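Notch signalling was described here through 35 genes. They were 4 receptors, 7 ligands, 4 genes of proteases or their subunits and 3 fringe glycosyltransferases. The others were 5 regulators of the receptor, 4 genes of the nuclear complex and 8 effectors. The genes were taken by name from a list of pathway members that was chosen with earlier results of these data known. For each gene the brightest probe set by its average on the 6 arrays was read, among probe sets annotated to that symbol alone. All 35 were measured, of 22180 genes in the table. RNA came from the cerebellum of mice at postnatal day 7. The knockout group held 3 arrays of Math1Cre::CrebbpFl/Fl mice, in which Cre driven by Math1 (Atoh1) acts on floxed alleles of Crebbp in the granule neuron lineage. The wild-type group held 3 arrays of Math1Cre mice with wild-type Crebbp, so both groups carried the Cre. The tissue was whole cerebellum, which also holds Purkinje cells, interneurons, glia and vessels outside the Math1 lineage. In such bulk samples fewer cells of a type and less RNA per cell cannot be told apart.

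Notch is a receptor that is cut when a ligand of the Delta or Jagged type on a neighbouring cell binds it. ADAM proteases and then the gamma-secretase complex release its intracellular part, which joins RBPJ and a Mastermind-like (MAML) protein on DNA. MAML proteins recruit CREBBP and its relative p300, and the complex switches on repressors of the HES and HEY families. In the cerebellum, Notch2 and Jag1 are known for keeping granule neuron precursors undifferentiated, and Purkinje cells signal to Bergmann glia through DNER.

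Of the 35 Notch genes, 3 rose, 3 fell and 29 did not pass at an adjusted p under 0.05 (limma, Benjamini-Hochberg over all 22180 genes). The effectors Hey1 and Hes3 and the protease gene Adam17 rose in the knockout, while the fringe gene Mfng and the regulators Dtx1 and Numbl fell. The 6 called members make up 17.1% of the list. Because the list was chosen with earlier results of these data known, shares set beside it are descriptions and not a test. Of all genes tested 6.67% passed, 2.72% as rises and 3.94% as falls (604 and 875 genes, and 440 and 1084 after centring each array on its median). None of the 35 Notch genes had a mean below the lower quartile of all gene values, and 8.64% of the 16625 genes at or above it passed. The changes were small: the largest, of Mfng, was 1.34-fold, and the median size over the 35 genes was 0.08 on the log2 scale, against 0.09 over all genes. The median signed change was -0.03 for the Notch genes and -0.0028 for all genes. At an unadjusted p under 0.05 were 11 of the 35 Notch genes and 4533 of all 22180 genes. All 3 knockout values lay above all 3 wild-type values in 4 of the 35 genes, beside 11.8% of all genes, and below them in 8, beside 13.1% of all genes.

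**Figure D1:**
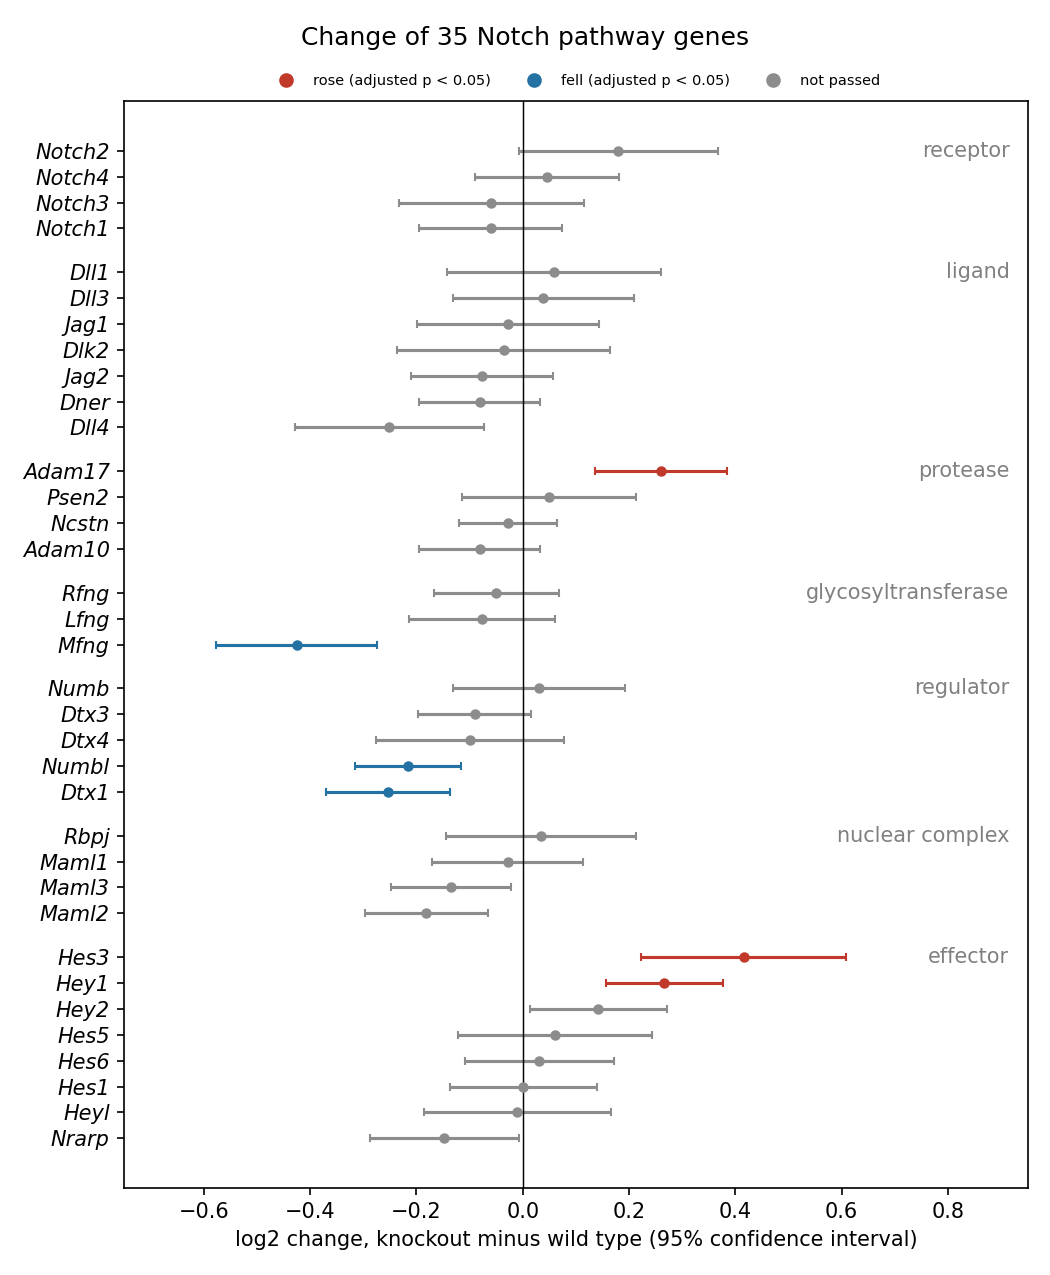
Log2 change (knockout minus wild type) of the 35 Notch pathway genes on the horizontal axis, with 95% confidence intervals, grouped by role down the page. Hes3, Hey1 and Adam17 lie to the right and Mfng, Numbl and Dtx1 to the left with intervals clear of 0 and an adjusted p under 0.05, while the other 29 did not pass.

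Arrays were alike, with Pearson's r across genes of 0.993 to 0.996 within groups and 0.991 to 0.994 between them. Crebbp itself read 11.46, 11.42 and 11.32 in the knockout, against 11.96, 11.99 and 11.90 in wild type (log2 change -0.56, SE 0.05, adjusted p = 0.000354), which matches the labels of all 6 arrays. No label says which exons its probes cover. Defining markers of the labelled tissue were bright, such as Calb1 of Purkinje cells (12.50 to 12.54 in knockout and 12.30 to 12.39 in wild type) and Cntn2 of young granule neurons (10.76 to 10.89 in knockout and 11.59 to 11.61 in wild type). The choroid plexus gene Ttr stood above 10 on 3 arrays, at 13.77 and 13.92 on knockout replicates 1 and 3 and 12.30 on wild-type replicate 1, against 9.19 on knockout replicate 2 and 8.08 and 8.91 on wild-type replicates 2 and 3. Of 11 granule neuron markers, 8 fell and 0 rose, and their mean log2 value was 9.79 to 9.92 on the knockout arrays and 10.33 to 10.54 on the wild-type arrays. Of 10 granule precursor markers 2 rose and 1 fell, with means of 10.13 to 10.27 in knockout and 10.15 to 10.19 in wild type. All 10 choroid plexus markers averaged higher in the knockout (median log2 change 0.96) without passing, 6 of them at an unadjusted p under 0.05, and their mean was 8.61, 7.01 and 9.30 in knockout, against 7.63, 6.99 and 7.04 in wild type. Of 7 interneuron and 7 microglia markers 0 passed, with 2 and 1 at an unadjusted p under 0.05. Interneuron means were 9.04 to 9.26 in knockout and 9.09 to 9.13 in wild type, and microglia means 8.42 to 8.57 in knockout and 8.44 to 8.45 in wild type. The part of these shifts in the Notch gene results was not tested, apart from the fits with choroid plexus content given beside them.

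The start regions of a few members are shown because RBPJ, the DNA-binding protein of the pathway, is known to bind the letters TGGGAA in targets such as Hes5. RefSeq windows of 250 bases before the start (build GRCm38.p6) were matched by symbol to 28 of the 35 members, the others being Dtx3, Dtx4, Hes1, Hes3, Hey1, Heyl and Mfng. Capitals mark TGGGAA on either strand, so that a match on the opposite strand reads TTCCCA. Hes5, Hey2 and Lfng hold the letters and did not pass the test, and Dtx1 and Numbl fell and do not hold them.
Hes5, chr4:154960673-154960922, plus strand: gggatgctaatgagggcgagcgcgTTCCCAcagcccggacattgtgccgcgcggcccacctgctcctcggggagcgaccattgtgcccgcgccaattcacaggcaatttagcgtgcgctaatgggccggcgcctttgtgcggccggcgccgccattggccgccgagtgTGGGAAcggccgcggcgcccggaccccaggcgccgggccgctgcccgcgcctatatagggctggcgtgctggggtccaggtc
Hey2, chr10:30842784-30843033, minus strand: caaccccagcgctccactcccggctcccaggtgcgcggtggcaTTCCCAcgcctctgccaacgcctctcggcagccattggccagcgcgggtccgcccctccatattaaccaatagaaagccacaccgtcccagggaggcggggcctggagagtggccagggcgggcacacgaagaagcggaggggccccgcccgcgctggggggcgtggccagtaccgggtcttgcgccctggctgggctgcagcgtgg
Lfng, chr5:140607091-140607340, plus strand: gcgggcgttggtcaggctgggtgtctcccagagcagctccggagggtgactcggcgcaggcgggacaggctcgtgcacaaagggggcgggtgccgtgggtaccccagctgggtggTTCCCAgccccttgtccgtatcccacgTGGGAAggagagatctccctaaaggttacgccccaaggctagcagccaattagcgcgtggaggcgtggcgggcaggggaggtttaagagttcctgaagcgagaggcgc
Dtx1, chr5:120711670-120711919, minus strand: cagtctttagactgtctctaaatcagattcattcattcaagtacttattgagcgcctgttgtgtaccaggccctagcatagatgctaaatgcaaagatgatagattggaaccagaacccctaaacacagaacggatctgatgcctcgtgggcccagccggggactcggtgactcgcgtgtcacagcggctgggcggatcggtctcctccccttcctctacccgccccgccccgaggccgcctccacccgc
Numbl, chr7:27258511-27258760, plus strand: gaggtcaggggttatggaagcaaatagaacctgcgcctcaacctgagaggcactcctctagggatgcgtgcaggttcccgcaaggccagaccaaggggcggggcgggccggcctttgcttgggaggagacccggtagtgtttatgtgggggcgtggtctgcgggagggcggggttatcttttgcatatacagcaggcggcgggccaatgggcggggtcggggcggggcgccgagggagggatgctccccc
In Hes5 the matches lay 226 to 221 bases and 82 to 77 bases before the start, on opposite strands. Hey2 had 1 match, at 207 to 202 bases, and Lfng had 2, at 135 to 130 and 108 to 103 bases. Over all members, 8 of 36 windows (7 of 28 genes: Hes5, Hey2, Lfng, Maml2, Maml3, Psen2 and Rbpj) held TGGGAA on either strand, against 21.6% of 32851 RefSeq windows. The E-box letters CACGTG can be bound by HES and HEY proteins and many other factors. They were in 4 of 36 member windows (4 of 28 genes: Adam10, Lfng, Nrarp and Psen2), against 6.0% of all windows. In Lfng a CACGTG overlapped the second TGGGAA. A match is a description of these letters and not a measured binding site, and none of the 3 called members with a window (Adam17, Dtx1 and Numbl) held either motif.

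Among the 8 effectors, 2 rose, 0 fell and 6 did not pass. Hey1, a repressor of the HEY family that Notch switches on in progenitors and vessels, read 11.64, 11.60 and 11.51 on the knockout arrays and 11.36, 11.33 and 11.27 on the wild-type arrays. All 3 knockout arrays were above all wild-type arrays. The log2 change was 0.27 (SE 0.05, adjusted p = 0.0125), a 1.20-fold rise with a 95% confidence interval of 1.11 to 1.30. Its call was lost without knockout replicate 1 (change 0.24, adjusted p = 0.0514), with choroid plexus content as a covariate (0.29, adjusted p = 0.0510), without the 3 arrays with high Ttr (0.305, adjusted p = 0.204) and with a prior variance that has no trend (adjusted p = 0.0794).

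Hes3, a repressor of the HES family that was first described in cerebellar Purkinje cells, had the largest rise among the Notch genes. Its values were 7.93, 8.11 and 8.18 in knockout, against 7.60, 7.78 and 7.59 in wild type. The groups did not overlap, though the highest wild-type array came within 0.15 of the lowest knockout array. The change was 0.42 (SE 0.09, adjusted p = 0.0207), or 1.33-fold (95% confidence interval 1.17 to 1.52). The adjusted p of Hes3 was 0.0529, 0.0569, 0.0928 and 0.0628 without knockout replicate 2 or 3 or wild-type replicate 1 or 3, and 0.0833 with the choroid plexus covariate, 0.194 without the high-Ttr arrays and 0.0641 without a trend, while its change stayed between 0.36 and 0.49 over all alternatives. Of 7 measured Purkinje cell markers 6 averaged higher in the knockout and 0 passed. An unadjusted p under 0.05 was held by 1, Calb1 (change 0.16, adjusted p = 0.0577). The mean over the 7 markers was 10.36 to 10.42 in knockout and 10.22 to 10.42 in wild type. The part of Purkinje cell content in the rise of Hes3 was not tested.

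**Figure D2:**
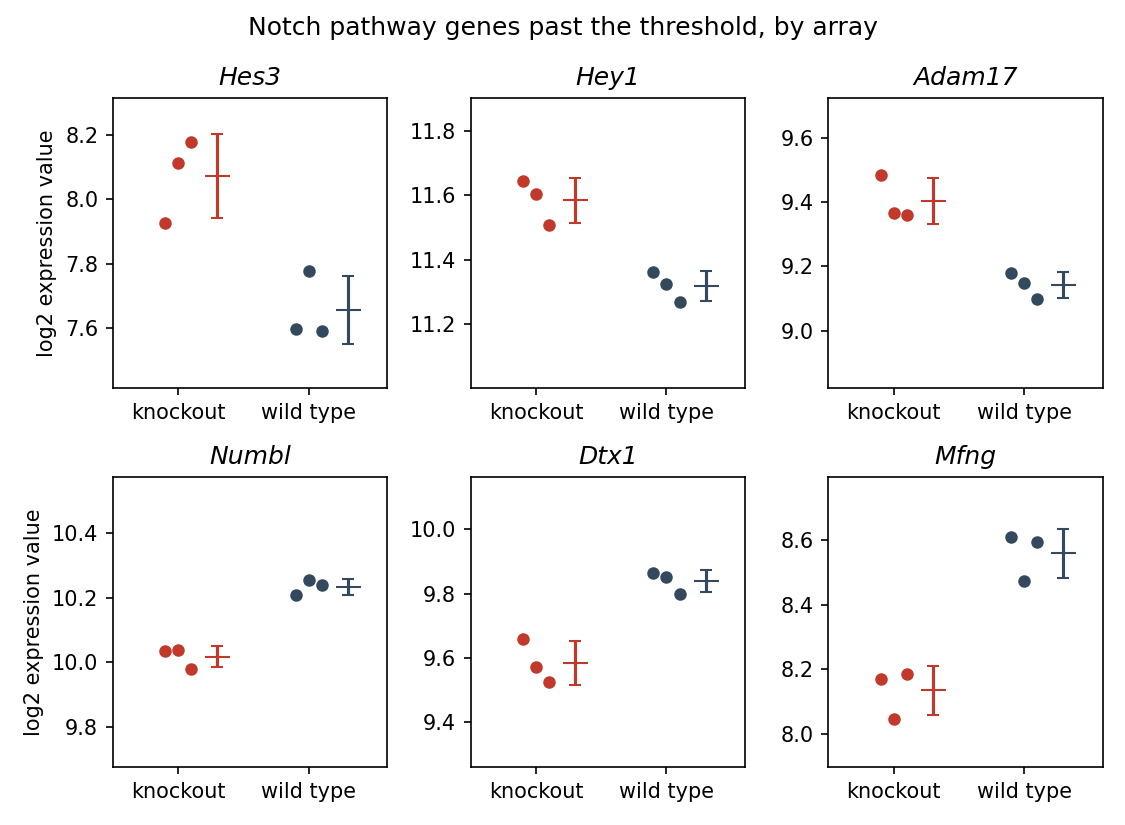
Log2 expression values (vertical axis, a span of 0.9 in every panel) of the 6 Notch pathway genes past the threshold, with a point for each of the 3 knockout (red, left) and 3 wild-type arrays (dark, right) and the mean with SD beside them. In every panel the 2 groups are apart, with Hes3, Hey1 and Adam17 higher and Numbl, Dtx1 and Mfng lower in the knockout.

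Hes1 and Hes5, the effectors most often read as direct output of Notch, did not pass. Hes1, the repressor that keeps neural progenitors undifferentiated, read 8.00, 8.08 and 8.00 in knockout and 8.05, 8.03 and 8.00 in wild type. The groups overlapped, and the change was 0.00 (SE 0.06, adjusted p = 0.997), with an interval that reaches 1.10-fold in either direction. Hes5, the HES repressor of neural stem cells and glia whose window is printed above, read 9.03, 9.30 and 9.00 in knockout and 9.02, 9.00 and 9.14 in wild type. Knockout replicate 2, the knockout array with low Ttr, alone was high. The difference was 0.06 with it (adjusted p = 0.761) and -0.03 without it. With choroid plexus content as a covariate the difference was 0.20 (adjusted p = 0.210). Without the 3 high-Ttr arrays, which keeps only that knockout array, it was 0.23. A dimmer probe set of Hes5 had a difference of -0.12 (adjusted p = 0.533). Of 12 Bergmann glia and astrocyte markers 3 rose and 1 fell, with means of 10.99 to 11.10 in knockout and 10.96 to 11.01 in wild type, and their part in the effector results was not tested.

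Hey2, another repressor of the HEY family, had 8.39, 8.46 and 8.44 in knockout, against 8.25, 8.30 and 8.31 in wild type. The arrays of the groups lay apart, but the change of 0.14 (SE 0.06) did not pass (adjusted p = 0.199). Nrarp, which binds the Notch and RBPJ complex and dampens its output, read 8.16, 8.25 and 8.16 in knockout and 8.36, 8.27 and 8.38 in wild type. Here the knockout arrays were the lower ones without overlap, at a change of -0.15 (SE 0.06, adjusted p = 0.219). Hes6, which opposes Hes1 and promotes neuronal differentiation, averaged 8.95 ± 0.10 in knockout and 8.92 ± 0.04 in wild type (SD, n = 3 each), and Heyl averaged 7.91 ± 0.08 in knockout and 7.92 ± 0.11 in wild type. Both overlapped between the groups (adjusted p = 0.851 and 0.964).

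Of the 3 fringe genes, 1 fell, 0 rose and 2 did not pass. Fringe enzymes add a sugar to O-fucose on the Notch extracellular part and so tune which ligands activate it. Mfng (manic fringe) read 8.17, 8.05 and 8.19 in knockout, against 8.61, 8.47 and 8.60 in wild type. The highest knockout array lay 0.29 below the lowest wild-type array, and the change was -0.43 (SE 0.07, adjusted p = 0.00622), a 1.34-fold fall with an interval of 1.21 to 1.49. It had the smallest p of the 35 Notch genes and passed whichever single array was left out (adjusted p from 0.00972 to 0.0385) and with the choroid plexus covariate. Without the 3 high-Ttr arrays, which leaves 1 knockout array, the change was -0.49 (adjusted p = 0.0823).

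Lfng (lunatic fringe) averaged 9.96 ± 0.06 in knockout and 10.03 ± 0.11 in wild type, and Rfng (radical fringe) 9.31 ± 0.05 in knockout and 9.36 ± 0.05 in wild type. Their groups overlapped, at changes of -0.08 (adjusted p = 0.564) and -0.05 (adjusted p = 0.679). Whether the change of Mfng differs from those of Lfng and Rfng was not tested.

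Among the 5 regulators, 2 fell, 0 rose and 3 did not pass. Dtx1, a Deltex ubiquitin ligase that binds the intracellular part of Notch, read 9.66, 9.57 and 9.53 in knockout, against 9.86, 9.85 and 9.80 in wild type. All knockout values were below all wild-type values. The change was -0.25 (SE 0.05, adjusted p = 0.0204), a 1.19-fold fall with an interval of 1.10 to 1.29. A second, dimmer probe set of Dtx1, tested on its own, read 7.30, 7.06 and 6.98 in knockout and 7.74, 7.45 and 7.48 in wild type and fell too, by 0.44 (SE 0.11, adjusted p = 0.0412 over all probe sets). The first probe set lost its call without knockout replicate 2 (adjusted p = 0.0504) or wild-type replicate 1 (0.0976) or 2 (0.0686), without the high-Ttr arrays (0.297), with the choroid plexus covariate (0.0932) and without a trend (0.0841), at changes of -0.22 to -0.29 over all alternatives.

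Numbl, the relative of Numb that is known to inhibit Notch in neural progenitors, read 10.03, 10.04 and 9.98 in knockout, against 10.21, 10.25 and 10.24 in wild type. The arrays were close together within each group and the groups lay apart. Its change was -0.22 (SE 0.05, adjusted p = 0.0211), a 1.16-fold fall (interval 1.08 to 1.25), in a range of -0.24 to -0.18 over all alternatives. The call was lost without knockout replicate 1 (adjusted p = 0.0572) or wild-type replicate 1, 2 or 3 (0.0721, 0.0695 and 0.0581), with the choroid plexus covariate (0.130), without the high-Ttr arrays (0.413) and without a trend (0.0934). Mfng, Dtx1 and Numbl fell in samples in which 8 of 11 granule neuron markers fell, among them Cntn2 by 0.77 and Slc17a7 by 0.81. The part of that shift in the 3 falls was not tested.

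Numb itself, the membrane protein that is handed unequally to daughter cells and blocks Notch, read 8.74, 8.77 and 8.79 in knockout and 8.57, 8.82 and 8.81 in wild type. The low value on wild-type replicate 1 lay apart from the other 5 arrays, and the change was 0.03 (adjusted p = 0.876). Dtx3 and Dtx4, other members of the Deltex family, averaged 9.90 ± 0.02 and 9.58 ± 0.17 in knockout and 9.99 ± 0.05 and 9.68 ± 0.06 in wild type. Dtx3 was lower on all knockout arrays, at a change of -0.09 (adjusted p = 0.336), and Dtx4 overlapped (adjusted p = 0.561) with its lowest value, 9.38, on knockout replicate 3.

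Of the 4 genes of proteases or their subunits, 1 rose, 0 fell and 3 did not pass. Adam17, a membrane protease that can make the first cut in Notch and also sheds TNF and growth factors, read 9.48, 9.37 and 9.36 in knockout, against 9.18, 9.15 and 9.10 in wild type. The groups lay apart by 0.18. The change was 0.26 (SE 0.06, adjusted p = 0.0234), a 1.20-fold rise with an interval of 1.10 to 1.31. Its adjusted p was 0.0864 without knockout replicate 1, 0.0700, 0.0676 and 0.0714 without wild-type replicate 1, 2 or 3, 0.121 with the choroid plexus covariate, 0.352 without the high-Ttr arrays and 0.0820 without a trend, at changes of 0.22 to 0.28.

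Adam10, the protease that makes the ligand-dependent cut in Notch, read 11.32, 11.38 and 11.33 in knockout and 11.38, 11.52 and 11.37 in wild type. The groups just overlapped, at a change of -0.08 (adjusted p = 0.435). Of the gamma-secretase genes, Ncstn (nicastrin) averaged 10.69 ± 0.02 in knockout and 10.71 ± 0.02 in wild type. Its interval reaches 1.09-fold, the narrowest among the 29 members that did not pass. Psen2 (presenilin 2) averaged 7.52 ± 0.07 in knockout and 7.47 ± 0.06 in wild type (adjusted p = 0.788).

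None of the 4 receptors passed, and 0 had an unadjusted p under 0.05. Notch1 read 9.53, 9.53 and 9.38 in knockout and 9.61, 9.51 and 9.49 in wild type, with overlap and a change of -0.06 (adjusted p = 0.660). Notch2, the receptor known in granule neuron precursors, read 9.58, 9.34 and 9.71 in knockout and 9.34, 9.33 and 9.42 in wild type. Its high values were on knockout replicates 1 and 3, the knockout arrays with high Ttr. Wild-type replicate 1, with Ttr at 12.30, read 9.34. The mean over the choroid plexus markers was 8.61 and 9.30 on those 2 knockout arrays and 7.63 on wild-type replicate 1. The change of 0.18 (SE 0.08, adjusted p = 0.266) became 0.28 and passed without knockout replicate 2 (adjusted p = 0.0357). With choroid plexus content as a covariate the change was 0.03 (adjusted p = 0.905). Without the 3 high-Ttr arrays, which leaves 1 knockout array, it was -0.03.

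Notch3, the receptor of vascular mural cells, averaged 8.62 ± 0.13 in knockout and 8.68 ± 0.09 in wild type (adjusted p = 0.754). Notch4, the receptor of endothelial cells, averaged 8.31 ± 0.03 in knockout and 8.26 ± 0.05 in wild type (adjusted p = 0.764). Of 12 endothelial and 10 mural cell markers 0 passed, each list with 1 gene at an unadjusted p under 0.05. Endothelial means were 9.08 to 9.17 in knockout and 9.05 to 9.12 in wild type, and mural means 8.77 to 8.90 in knockout and 8.82 to 8.90 in wild type.

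Of the 7 ligand genes 0 passed, and 1 had an unadjusted p under 0.05. Dll4, a Delta ligand of endothelial tip cells and of some neural cells, read 7.80, 7.80 and 7.61 in knockout, against 7.92, 7.96 and 8.09 in wild type. All knockout arrays were lower, but the change of -0.25 (SE 0.08) had an adjusted p of 0.0997, and it ran from -0.29 to -0.17 over the alternatives without passing in any fit at 0.05. Its interval reaches a 1.35-fold fall, the farthest from no change among the members that did not pass.

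Dner, the Purkinje cell ligand, read 11.88, 11.85 and 11.72 in knockout and 11.94, 11.87 and 11.88 in wild type, a change of -0.08 (adjusted p = 0.439). Jag1, the ligand linked to Notch2 in precursors, read 8.29, 8.26 and 8.05 in knockout and 8.19, 8.29 and 8.20 in wild type (change -0.03, adjusted p = 0.897). In both genes knockout replicate 3 was the lowest of the 6 arrays and the groups overlapped. Jag2 averaged 8.70 ± 0.07 in knockout and 8.78 ± 0.05 in wild type (adjusted p = 0.554). Dll1 averaged 7.77 ± 0.15 in knockout and 7.71 ± 0.10 in wild type, with an adjusted p of 0.794, and a second probe set had a difference of -0.08 (adjusted p = 0.634). Dll3, a divergent Delta protein that inhibits Notch in the same cell, averaged 7.36 ± 0.09 in knockout and 7.32 ± 0.03 in wild type, and Dlk2, a relative that lacks the usual receptor-binding part, 7.27 ± 0.16 in knockout and 7.31 ± 0.01 in wild type.

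In the nuclear complex, through which CREBBP meets the pathway, 0 of 4 genes passed. An unadjusted p under 0.05 was held by 2 of the 4, beside 4533 of all 22180 genes tested. Rbpj read 10.37, 10.20 and 10.03 in knockout and 10.22, 10.20 and 10.09 in wild type, with the knockout arrays at both ends of the range and a change of 0.03 (adjusted p = 0.872). A second, dimmer probe set of Rbpj had a difference of -0.09 (adjusted p = 0.763). Rbpj has pseudogenes in mouse that resemble its transcript, and no label says whether the probes tell them apart. Maml2 read 9.25, 9.27 and 9.19 in knockout, against 9.46, 9.42 and 9.38 in wild type, and Maml3 read 9.32, 9.26 and 9.34 in knockout, against 9.45, 9.47 and 9.40 in wild type. Both Mastermind-like genes were lower on all knockout arrays, at changes of -0.18 (SE 0.05, adjusted p = 0.0696) and -0.13 (SE 0.05, adjusted p = 0.160). Maml2 passed after median centring (change -0.21, adjusted p = 0.0450). Maml1 averaged 8.53 ± 0.06 in knockout and 8.55 ± 0.07 in wild type, with overlap (adjusted p = 0.866).

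**Figure D3:**
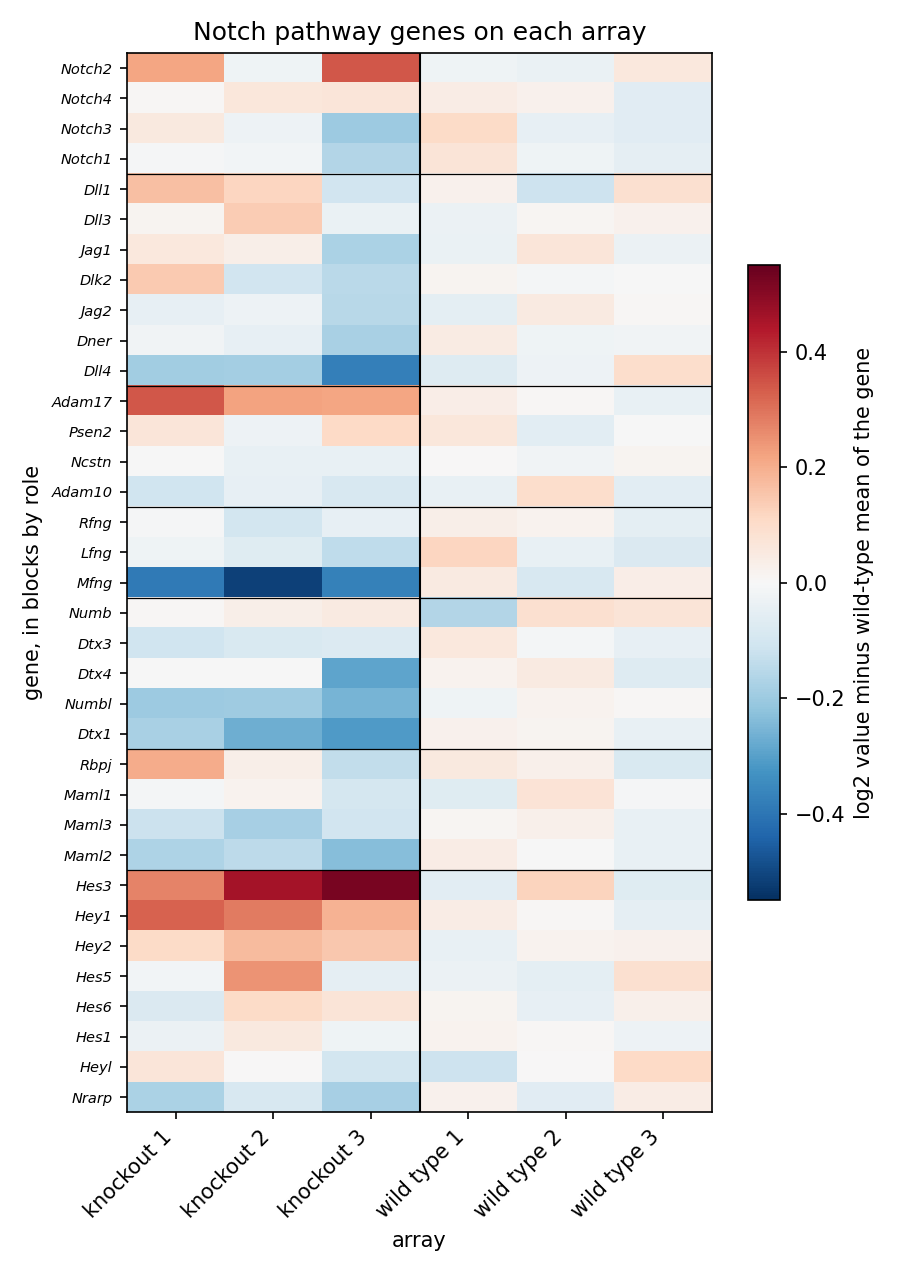
Log2 value of each of the 35 Notch pathway genes on each array minus the gene's wild-type mean. The 3 knockout arrays are left of the 3 wild-type arrays. Genes are in blocks by role (receptors, ligands, proteases or their subunits, fringe genes, regulators, nuclear complex, effectors). Red is above and blue below the wild-type mean, and knockout replicate 3 shows the lowest value of the 6 arrays in 16 genes.

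Arrays differed in how often they held the lowest value of a Notch gene. Knockout replicate 3 was the lowest of the 6 arrays for 16 of the 35 genes (45.7%), while knockout replicates 1 and 2 were lowest for 4 each and the wild-type arrays for 3 or 4 each. Over all 22180 genes knockout replicate 3 was the lowest for 22.4% and the other arrays for 14.2% to 17.3%. The mean log2 value of the 35 genes was 9.07, 9.06 and 9.00 on the knockout arrays and 9.07, 9.07 and 9.06 on the wild-type arrays. Knockout replicate 3 also had the lowest means of the 6 arrays over the granule precursor (10.13), interneuron (9.04) and microglia markers (8.42). It had the highest means over the choroid plexus (9.30), endothelial (9.17) and mural markers (8.90). Its mean over 7 oligodendrocyte markers was the lowest too, at 9.30, 9.61 and 9.01 in knockout and 9.75, 9.66 and 9.64 in wild type. All 7 oligodendrocyte markers averaged lower in the knockout (median log2 change -0.39), 6 of them at an unadjusted p under 0.05. Of them 0 rose and 1 fell. The part of any of these marker lists in the low values of knockout replicate 3 was not tested. Without knockout replicate 3 the median change of the list was 0.01, against -0.03 with all arrays.

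For the 29 members that did not pass, changes ran from -0.25 to 0.18, and the 95% confidence interval lay within 1.4-fold in either direction for all 29. The interval that reaches farthest from no change was that of Dll4, at 1.35-fold, followed by that of Notch2, at 1.29-fold. The bound of 1.4-fold is wider than the largest called change, 1.34-fold for Mfng, so it does not set these members apart from the called ones.

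**Figure D4:**
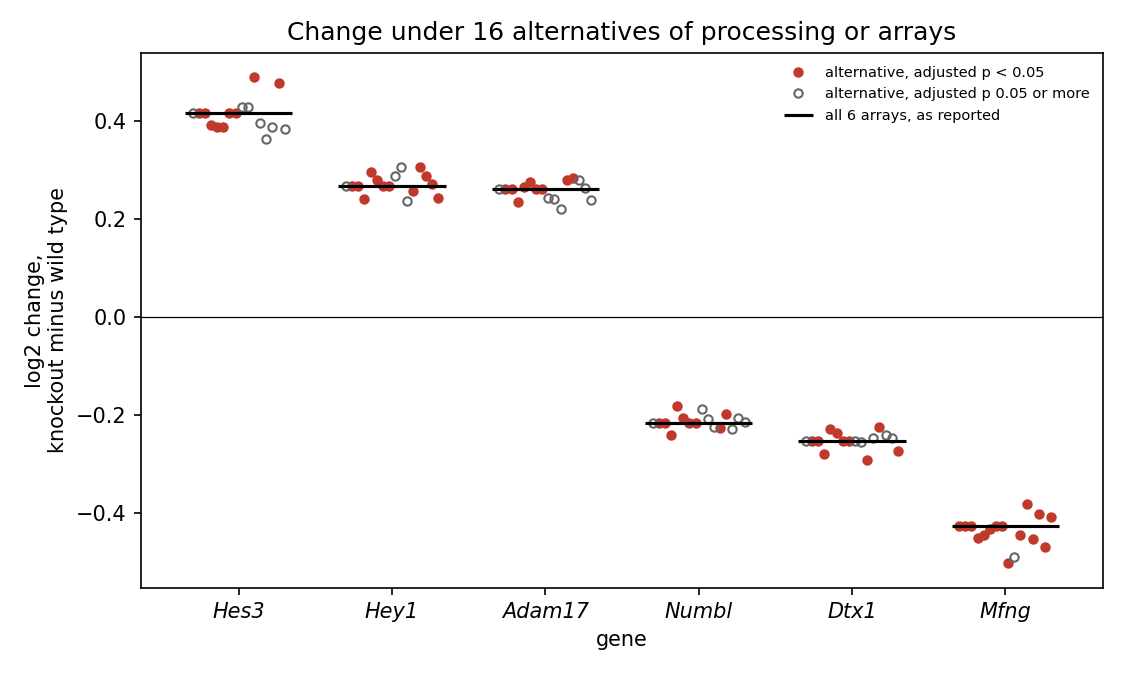
Log2 change (knockout minus wild type, vertical axis) of the 6 called Notch genes with all 6 arrays (black line) and under 16 alternatives (points, filled where the adjusted p was under 0.05 and open where it was not). Each gene keeps its sign in all 16, while Mfng keeps its call in 15, Hey1 in 12, Dtx1 in 10 and Hes3, Adam17 and Numbl in 9 each.

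Of 28 further genes of the pathway, 25 were measured, and of these 1 rose, 1 fell and 23 did not pass. Of all genes 6.67% passed, and 8.64% of those at or above the lower quartile of all gene values, where all 25 lay. An unadjusted p under 0.05 was held by 4 of the 25, beside 4533 of all 22180 genes. Neurl1b, a Neuralized ubiquitin ligase that drives uptake of Notch ligands in the sending cell, read 8.09, 8.19 and 7.78 in knockout, against 8.60, 8.60 and 8.53 in wild type. It lay lower on all knockout arrays, most so on replicate 3, and fell by 0.56 (SE 0.10, adjusted p = 0.00988), or 1.47-fold (interval 1.26 to 1.71). The change was -0.37 without the high-Ttr arrays (adjusted p = 0.168), -0.40 with the choroid plexus covariate (0.0629), -0.54 without wild-type replicate 1 (0.0528), and its adjusted p was 0.0513 without a trend.

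Itch, a ubiquitin ligase that marks Notch for breakdown, read 10.16, 10.21 and 10.08 in knockout, against 9.92, 9.97 and 9.81 in wild type. The groups lay apart, and the change was 0.25 (SE 0.06, adjusted p = 0.0315). Its call was lost without knockout replicate 1 or 2 (adjusted p = 0.0903 and 0.0844) or wild-type replicate 1 or 3 (0.0993 and 0.0862), with the choroid plexus covariate (0.0575), without the high-Ttr arrays (0.213) and without a trend (0.113). Neurl1a, the relative of Neurl1b, averaged 8.55 ± 0.08 in knockout and 8.75 ± 0.06 in wild type (change -0.20, adjusted p = 0.0965), and Hes2 averaged 7.13 ± 0.05 in knockout and 7.39 ± 0.14 in wild type (change -0.26, adjusted p = 0.114). Both were lower on all knockout arrays without passing.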

How the data were processed

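Per the labels' protocols, Trizol total RNA was labelled with a GeneChip WT PLUS kit. The deposited table holds log2 expression per probe set and array, and the submitters' processing notes name RMA and oligo, without versions. No filter is stated, and without background measures dim genes have no detection call. The values were used as deposited, for 41345 probe sets, of which 23521 had 1 symbol in GEO's platform annotation. Array medians were 7.25 to 7.29. The comparison used R 4.3.3 and limma 3.58.1 (lmFit, then eBayes with trend, two-sided, Benjamini-Hochberg over 22180 genes, threshold 0.05), and the fit was tested on simulated data. Changes are knockout minus wild type, and "rose" and "fell" mean that the threshold was passed. Whether each array had its own animal is not stated, and the p-values then measure the spread between these samples, which may be technical. Precision is limited by the 3 arrays per group. The members, marker lists and further pathway genes were chosen with earlier results of these data known. Named genes are Crebbp, all 35 members, the further pathway genes past the threshold or with the 4 smallest p, and marker genes. Same-numbered arrays did not deviate together (r of 0.01, 0.03 and -0.13), so the numbers were not taken as pairs. Alternatives were other priors, a filter on dim genes, other normalization, array weights, a replicate block, probe sets on their own, thresholds of 0.01 and 0.10, choroid plexus content, and each array left out. Plots used matplotlib 3.10.9.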

Additional observations from a re-analysis of the deposited data

How the results depend on the processing

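With all 6 arrays 3 Notch genes rose and 3 fell, and 1 further pathway gene rose and 1 fell. These 4 counts stayed within 1.5 times under a robust prior, without dim genes, after median centring (4 falls) or repeated quantile normalization, with array weights and with probe sets tested on their own. The replicate block gave 3 rises and 3 falls of Notch genes, a median change of -0.03, and 1 rise and 1 fall of further genes. Same-numbered arrays share only a number, and no call changed with the block. Without a trend in the prior variance, and with choroid plexus content as a covariate, 0 Notch genes rose, 1 fell (Mfng) and 0 further genes passed in either direction. Without the 3 arrays with Ttr above 10, which leaves 1 knockout and 2 wild-type arrays, 0 Notch genes and 0 further genes rose or fell, and over all genes 112 rose and 124 fell, against 604 and 875 with 6 arrays. With a threshold of 0.01, 0 Notch genes rose and 1 fell, and of the further genes 0 rose. At 0.10, 5 Notch genes and 2 further genes fell. With 1 array left out, Notch rises ran from 1 to 3 and falls from 1 to 3, and further rises and falls from 0 to 1 each. Leaving out arrays leaves fewer samples in the fit, and other causes were not tested. Median centring moved the split over all genes to 440 rises and 1084 falls. Signs turned only for members that passed in neither fit. Hes1 had -0.024 after median centring, -0.031 after quantile normalization and -0.0059 with array weights, and Ncstn 0.014 after quantile normalization. With array weights Dlk2 had 0.0078, Jag1 0.0079 and Heyl 0.029. With the choroid plexus covariate Jag1 had 0.052, Heyl 0.042, Maml1 0.033, Dtx4 0.0013 and Psen2 -0.023. Without the high-Ttr arrays Notch1 had 0.023, Notch2 -0.033, Notch3 0.023, Jag1 0.014, Numb -0.047 and Dtx4 0.0067. With 1 array left out, changes ran from -0.051 to 0.12 for Rbpj, -0.0105 to 0.077 for Dll3, -0.027 to 0.016 for Hes1, -0.032 to 0.11 for Hes5, -0.0053 to 0.087 for Hes6 and -0.11 to 0.011 for Notch3. They ran from -0.13 to 0.021 for Dlk2, -0.071 to 0.045 for Jag1, -0.067 to 0.045 for Heyl, -0.063 to 0.0089 for Maml1 and -0.0498 to 0.075 for Numb.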
